A study of Mus musculus with 5 samples.

Results

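The genes described here code for the protein parts of the spliceosome and for the heterogeneous nuclear ribonucleoproteins (hnRNPs), read at their promoters for the histone variant H2A.Z and its chaperone ANP32E in mouse heart. Members were all genes whose symbol starts with Snrp, Sf3a, Sf3b, Prpf, Lsm, Hnrnp or Hnrp in the deposited tables of enriched regions. That rule found 66 of the 17548 genes listed in either table. Distances are listed from the gene's start to the middle of the region. A promoter was the listed region nearest to the gene's start, if its distance was within 1000 bp or within 50% of its own length. By that definition 62 members had an H2A.Z promoter, of 13738 genes with one, and 41 had an ANP32E promoter, of 5494. The letters also caught Lsmem1 and Lsmem2, membrane proteins that share only part of a name with the LSm genes. Lsmd1 is an older symbol for Naa38, an auxiliary subunit of an N-terminal acetyltransferase, and is counted with the LSm group below except where said. Hnrnpa2b1, Hnrnpc, Lsm8 and Sf3b6 were not among the listed genes under these symbols, so they have no values here.

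The libraries were chromatin immunoprecipitation followed by sequencing (ChIP-seq) from whole hearts of male C57BL/6 mice aged 12 weeks. One condition was a sham operation, labelled as a normal heart. The other was transaortic coarctation (TAC), in which the aorta is tied narrower so that the heart pumps against more pressure, kept for 4 days and labelled as a hypertrophied heart. Each protein had 1 library per condition, and 1 input library was labelled as pooled heart, so there is no replicate error and no test. A whole heart mixes cardiomyocytes with endothelial cells, fibroblasts and leukocytes, and the number of hearts behind a library was not given in the sources used here. A lower value can come from fewer cells carrying the protein or from less of it per cell, and the data cannot tell these apart. Of 13 marker genes of those cell types, 7 had an H2A.Z promoter and 2 an ANP32E promoter. Among the cardiomyocyte markers, Myh6, Myh7, Actc1 and Nppa had no H2A.Z promoter region, while Tnnt2 had a low one, at 15.0 in sham and 11.5 in TAC.

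Splicing removes introns from pre-mRNA through small nuclear ribonucleoproteins (snRNPs), each an RNA held in a ring of Sm or LSm proteins with further proteins of its own. The U1 snRNP marks the start of an intron, the U2 snRNP with its SF3A and SF3B complexes marks the branch point, and the PRP factors drive assembly and catalysis. The hnRNPs coat the transcript and shift splice site choice, RNA export and RNA stability. Most of these genes are expressed in nearly every cell type and start within CpG islands. H2A.Z replaces H2A in nucleosomes that flank active starts, and ANP32E is a chaperone that binds H2A.Z and removes it from chromatin.

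The promoter letters were read from RefSeq windows (GRCm38.p6) of 250 bases before to 50 after each start. Of the 62 H2A.Z members, 51 matched a window, all 51 starts lay inside the member's H2A.Z region, and 45 lay within 100 bp of the start used by the deposited table. The windows held a median of 24 CpG dinucleotides, against 21 in the 13483 windows that start in any H2A.Z promoter region and 7 in all 32851 windows. Their median GC content was 58.3%, against 61.7% and 52.7%. Of the promoters shown next, Hnrpdl, Hnrnpa0 and Hnrnph3 were the 3 hnRNP promoters with most H2A.Z. Prpf38a and Lsm6 are shown because their ANP32E average was at least 1.5-fold lower in TAC. Hnrnpf is shown at both its listed start, the member promoter with least H2A.Z in sham, and at a start within the CpG island downstream. All are 5′ to 3′ on the gene's strand, with capitals where the letters match, on either strand, the core bound by ETS factors (CCGGAAG), by Sp1 (GGGCGG), by NF-Y (CCAAT) or by YY1 (ATGGCGG), the TATA box (TATAAA) or part of the NRF1 motif (GCATGCG).
Hnrpdl (chr5:100039173-100039472, minus strand): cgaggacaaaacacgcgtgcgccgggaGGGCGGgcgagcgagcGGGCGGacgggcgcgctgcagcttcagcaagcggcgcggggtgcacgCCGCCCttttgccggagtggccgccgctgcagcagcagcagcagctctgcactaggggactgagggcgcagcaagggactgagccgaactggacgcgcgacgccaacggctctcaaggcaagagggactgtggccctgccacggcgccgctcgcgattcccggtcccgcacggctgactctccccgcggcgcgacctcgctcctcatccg
Hnrnpa0 (chr13:58128507-58128806, minus strand): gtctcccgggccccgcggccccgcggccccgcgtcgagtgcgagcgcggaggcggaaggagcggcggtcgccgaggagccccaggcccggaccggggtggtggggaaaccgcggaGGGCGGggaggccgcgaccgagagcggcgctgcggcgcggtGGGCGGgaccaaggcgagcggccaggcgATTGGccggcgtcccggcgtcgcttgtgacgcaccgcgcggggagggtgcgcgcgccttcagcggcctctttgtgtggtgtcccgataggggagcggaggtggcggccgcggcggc
Hnrnph3 (chr10:63023800-63024099, minus strand): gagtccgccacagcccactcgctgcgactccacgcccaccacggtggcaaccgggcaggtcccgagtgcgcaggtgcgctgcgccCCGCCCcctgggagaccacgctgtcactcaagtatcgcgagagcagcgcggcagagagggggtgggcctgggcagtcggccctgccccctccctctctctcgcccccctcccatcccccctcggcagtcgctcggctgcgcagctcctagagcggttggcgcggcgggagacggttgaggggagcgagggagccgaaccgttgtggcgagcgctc
Prpf38a (chr4:108579287-108579586, minus strand): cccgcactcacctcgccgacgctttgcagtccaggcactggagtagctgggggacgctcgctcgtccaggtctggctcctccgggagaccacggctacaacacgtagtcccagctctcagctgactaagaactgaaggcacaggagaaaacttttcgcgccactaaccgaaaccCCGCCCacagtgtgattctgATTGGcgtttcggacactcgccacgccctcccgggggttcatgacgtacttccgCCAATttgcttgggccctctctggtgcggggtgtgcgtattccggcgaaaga
Lsm6 (chr8:78821103-78821402, minus strand): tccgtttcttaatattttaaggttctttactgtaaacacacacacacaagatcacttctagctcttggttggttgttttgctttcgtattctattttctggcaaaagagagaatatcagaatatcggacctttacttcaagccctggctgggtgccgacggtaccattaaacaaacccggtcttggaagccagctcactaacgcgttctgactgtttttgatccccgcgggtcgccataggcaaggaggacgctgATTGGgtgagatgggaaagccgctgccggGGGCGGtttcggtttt
Hnrnpf, listed start (chr6:117900090-117900389, plus strand): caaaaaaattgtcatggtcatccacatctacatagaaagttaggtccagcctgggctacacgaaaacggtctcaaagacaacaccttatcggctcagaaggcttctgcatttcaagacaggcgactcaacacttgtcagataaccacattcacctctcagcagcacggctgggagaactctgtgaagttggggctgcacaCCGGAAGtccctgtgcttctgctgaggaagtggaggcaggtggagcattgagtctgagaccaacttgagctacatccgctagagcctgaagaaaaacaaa
Hnrnpf, start in the CpG island (chr6:117906532-117906831, plus strand): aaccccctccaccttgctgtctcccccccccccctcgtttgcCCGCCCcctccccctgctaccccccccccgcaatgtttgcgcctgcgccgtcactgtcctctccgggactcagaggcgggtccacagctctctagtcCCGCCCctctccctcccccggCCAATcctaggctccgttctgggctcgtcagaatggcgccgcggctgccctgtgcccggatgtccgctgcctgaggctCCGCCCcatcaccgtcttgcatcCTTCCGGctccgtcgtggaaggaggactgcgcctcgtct

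The Hnrnpa0 window was the richest in CpG among the members, with 52 CpG dinucleotides and 79.7% GC, and the Hnrpdl window had 42. The listed start of Hnrnpf held 7, while its start in the island held 24. Lsm6 had 16 and a GC content of 47.7%, and Prpf38a had 25 and 60.7%. No motif contains another, and partly overlapping matches count for each.

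CCGGAAG occurred in 14 of the 51 member windows, a share of 27.5%, against 17.1% of windows in H2A.Z promoter regions and 8.86% of all windows. ATGGCGG occurred in 10, or 19.6%, against 7.79% and 4.05%. CCAAT occurred in 27, or 52.9%, against 36.4% and 37.4%. The other motifs were near the H2A.Z background: GGGCGG in 33 windows (64.7%, against 64.9% and 35.7%), TATAAA in 4 (7.84%, against 6.58% and 13.6%) and GCATGCG in 3 (5.88%, against 6.20% and 3.58%). These are matches of letters within the windows, not measured binding.

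Most of these promoters were strongly marked by H2A.Z in both conditions. The deposited average signal over a member promoter region had a median of 33.3 in sham and 32.7 in TAC, against 27.6 and 28.4 over all promoters. The maximum within the region, the peak signal, had a median of 111.5 in sham and 119 in TAC, against 90 and 100. In sham, the median member stood at percentile 73.1 of all promoters. By the mean of sham and TAC, 46 of 62, or 74.2%, were in the stronger 50% of promoters. A CpG island was marked in 59 of the 62 regions, 95.2% against 84.2% of all promoters. A promoter region shared with another gene was found for 25 members, 40.3% against 29.8%. Region lengths were alike, with medians of 4087 bp for the members and 4291 bp for all promoters.

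Both sides of the distance limit are given here by their values. The farthest H2A.Z region still counted as a promoter was that of Lsmem2, listed at −8949 bp from the start with a length of 20961 bp (26.7 in sham, 25.6 in TAC). Just outside was Sf3a2, an SF3A subunit, whose nearest region lay 9364 bp downstream and was 6332 bp long (30.4 and 30.6). Altogether 14 H2A.Z members had a listed distance over 1000 bp but within 50% of the region's length. Those regions covered the start. For ANP32E, the last member inside was Lsmd1 at 919 bp (13.0 and 10.2) and the nearest outside was Lsm12 at −4239 bp (8.30 and 5.70). The regions named for Sf3a2 and Lsm12 were each counted as the promoter of another gene.

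**Figure D1:**
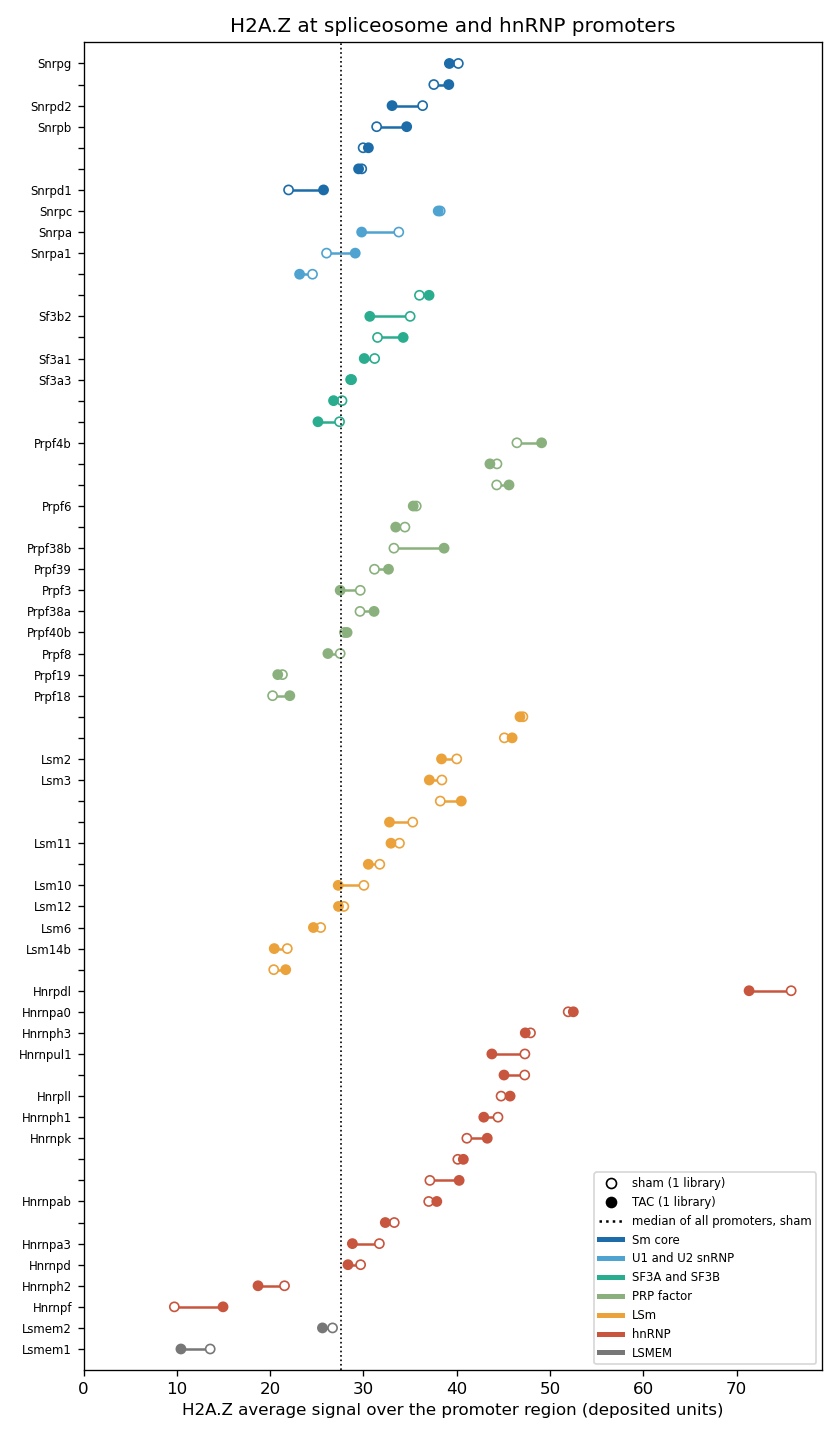
H2A.Z average signal (x axis, deposited units) at the 62 member promoters, grouped by role, with names for genes chosen from their values by the naming rule, with sham as open and TAC as filled circles from 1 library each and the sham median of all promoters (27.6) as a dotted line. Hnrpdl stands alone at 75.9 and 71.3, most hnRNP genes lie right of the line, and Hnrnpf and Lsmem1 are the weakest.

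Hnrpdl, which codes for an hnRNP D-like protein, carried the strongest H2A.Z promoter (chr5:100037708-100042223, mm10, shared with Enoph1), with an average of 75.9 in sham and 71.3 in TAC and a peak of 267 and 246. Hnrnpa0, a protein that binds AU-rich elements in mRNA, followed with 51.9 and 52.5. Prpf4b, a kinase that phosphorylates tri-snRNP proteins, had 46.4 and 49.1, and Hnrnph3, a binder of G-rich RNA, had 47.9 and 47.3. The 16 hnRNP genes had the highest sham median of the groups, 40.6. The LSm group stood at 33.9 (13 genes, or 32.8 without Lsmd1), the Sm core at 31.4 (7), SF3A and SF3B at 31.2 (7), the PRP factors at 31.2 (13) and the proteins specific to U1 and U2 at 29.9 (4). At the other end were Lsmem1, with 13.6 in sham and 10.4 in TAC, and Hnrnpf, with 9.72 and 14.9. Lsmem1, Hnrnpf and Prpf18 were the 3 promoters with no CpG island.

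The H2A.Z averages of sham and TAC lay close together at these promoters. The log2 ratio of TAC over sham, computed on the average signal plus 1, had a median of −0.03 (SD 0.12 over 62 promoters), against 0.04 (SD 0.16) over all promoters. No member was at least 1.5-fold higher, where 0.437% of all promoters were, and none was at least 1.5-fold lower, where 0.146% were. A ratio below 0 was found at 38 of 62 members, 61.3%, against 39.8% of all promoters. The order of the members was also kept, with a Spearman rho of 0.97 between sham and TAC averages over the 62 promoters, which come from the same pair of libraries.

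The peak signal gave the opposite sign. Its median log2 ratio was 0.12 at the members and 0.14 over all promoters, and 47 of 62 members had a peak ratio above 0, 75.8% against 74.9% of all promoters. Again no member's peak was 1.5-fold higher or lower (background 2.88% and 0.247%). At 24 members, 38.7% against 21.9% of all promoters, the average was lower and the peak higher in TAC. Snrpa, the A protein of the U1 snRNP, was among these, with an average of 33.8 in sham and 29.8 in TAC but a peak of 107 and 109. The H2A.Z peak ratio had a median of 0.09 over all regions, and the counts above do not remove this shift. Relative to it, the median peak ratio was 0.02 at the members and 0.04 over all promoters. Snrpa then had a peak ratio of −0.07, below 0 like its average.

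**Figure D2:**
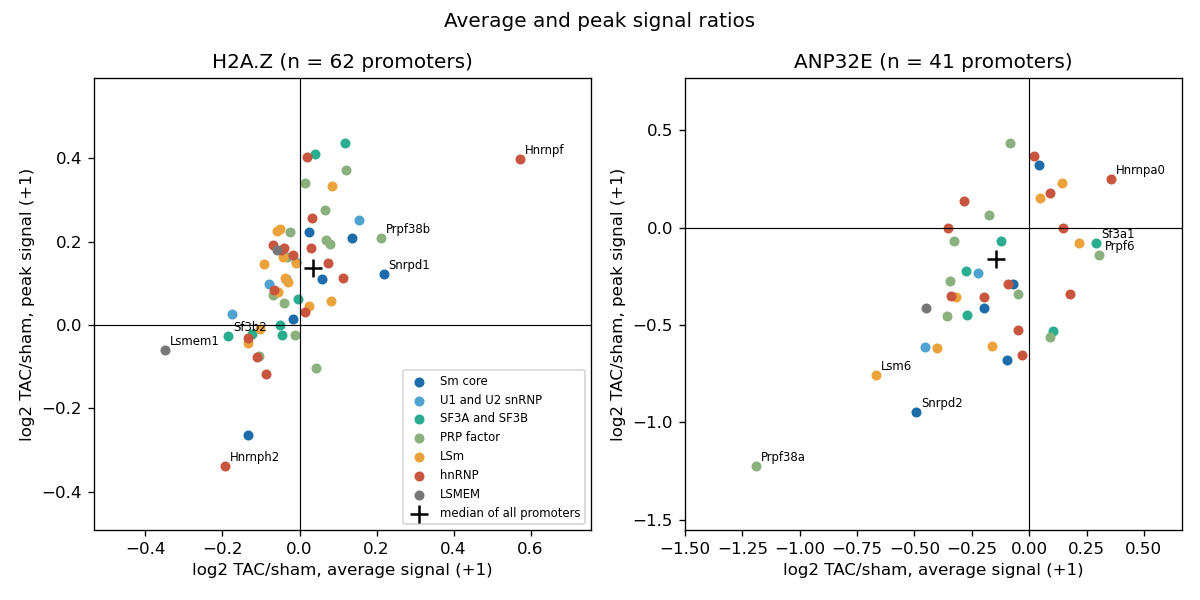
Log2 ratio of TAC over sham of the peak signal (y axis) against that of the average signal (x axis), both on signal plus 1, for 62 H2A.Z and 41 ANP32E member promoters coloured by role, with a cross at the median of all promoters. H2A.Z average ratios run from −0.35 (Lsmem1) to 0.57 (Hnrnpf) and peak ratios from −0.34 (Hnrnph2) to 0.44 (Sf3b5), and on the x axis Prpf38a (−1.19) and Lsm6 (−0.67) are the lowest for ANP32E.

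In the Sm core, the ring of proteins common to the spliceosomal snRNPs, 4 of 7 genes had a higher H2A.Z average in TAC and the median ratio was 0.03. Snrpd1 went from 22.0 in sham to 25.7 in TAC (0.22), and Snrpb, which codes for SmB, from 31.4 to 34.6 (0.14). Snrpd2 lay on the other side, at 36.3 and 33.1 (−0.13). Snrpg, Snrpd3, Snrpe and Snrpf had ratios within 0.06 of 0. Of the proteins specific to U1 or U2, Snrpa had the lowest ratio (−0.18), while Snrpa1, the A′ protein of the U2 snRNP, had 26.0 in sham and 29.1 in TAC (0.16). Snrpc, the C protein of U1, stood at 38.2 and 38.0, and Snrpb2, the B″ protein of U2, at 24.5 and 23.2.

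SF3A and SF3B, the U2 complexes that hold the branch point, had a median ratio of −0.05, with 5 of 7 genes below 0. Sf3b2 was the lowest, with 35.0 in sham and 30.7 in TAC (−0.18). Sf3b1, the large subunit that clamps the branch site, stood at 27.7 and 26.8. Sf3b5, a small SF3B subunit, was higher at 31.5 and 34.3 (0.12), and its peak at 112 and 152 gave the highest member peak ratio, 0.44.

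The 13 PRP factors split evenly, 7 above and 6 below 0, with a median of 0.01. Prpf38b, a relative of the spliceosome activation factor Prpf38a, had 33.3 in sham and 38.6 in TAC (0.21). Prpf18, which acts in the second catalytic step, had 20.3 and 22.1 (0.12). Prpf8, the large U5 protein at the catalytic centre, was at 27.5 and 26.2. Prpf3, a U4/U6 protein, had the lowest ratio of the group, with 29.7 and 27.5 (−0.11).

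Among the LSm genes, some of which code for rings that bind U6 snRNA or act in mRNA decay, 10 of 13 were below 0. Their median was −0.04. Without Lsmd1 it was 9 of 12, with the same median. The lowest was Lsm10, part of the U7 snRNP that processes histone mRNA, with 30.0 in sham and 27.3 in TAC (−0.13). Lsm2, a member of both the nuclear and the cytoplasmic ring, had 40.0 and 38.4. Lsm5 and Lsm7 were the highest of the group, at 20.4 and 21.7 (0.08) and at 38.2 and 40.5 (0.08). Lsmem1 had the lowest H2A.Z ratio of all members, −0.35.

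Among the hnRNP genes, 9 of 16 were below 0, with a median of −0.03. Hnrnph2, an X-linked binder of G-rich RNA, had 21.5 in sham and 18.7 in TAC (−0.19), and its peak went from 71 to 56 (−0.34), the lowest member peak ratio. Hnrnpa3 had 31.7 and 28.8 (−0.13). Hnrnpu, the scaffold attachment factor, had 37.1 and 40.3 (0.11), and Hnrnpk, a binder of C-rich RNA, had 41.1 and 43.3 (0.07). Hnrnpf, a relative of Hnrnph1, had the highest ratio of any member, 0.57, which is below 1.5-fold on the signal plus 1 scale.

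That ratio belongs to a weak region at the Hnrnpf start used by the table (chr6:117898876-117901617, mm10), at 9.72 in sham and 14.9 in TAC with peaks of 21 and 28. RefSeq gives Hnrnpf 4 starts, and this one, with the 7-CpG window printed above, has no CpG island. The next starts, 6442 and 7464 bp downstream, lie within the gene in a CpG-island region (chr6:117903514-117909156) with 33.1 and 28.0 and a log2 ratio of −0.23. A last start, 16954 bp downstream, lies in another CpG-island region (chr6:117915927-117918829) at 23.4 and 21.5 (−0.12). So the H2A.Z average of Hnrnpf was higher in TAC at the listed start and lower at both islands, and the islands held the larger signal in both conditions. ANP32E was listed only at the islands, with 9.44 in sham and 11.2 in TAC (0.22) at the first and 5.97 and 8.05 (0.38) at the second, each marked as called in TAC only.

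**Figure D3:**
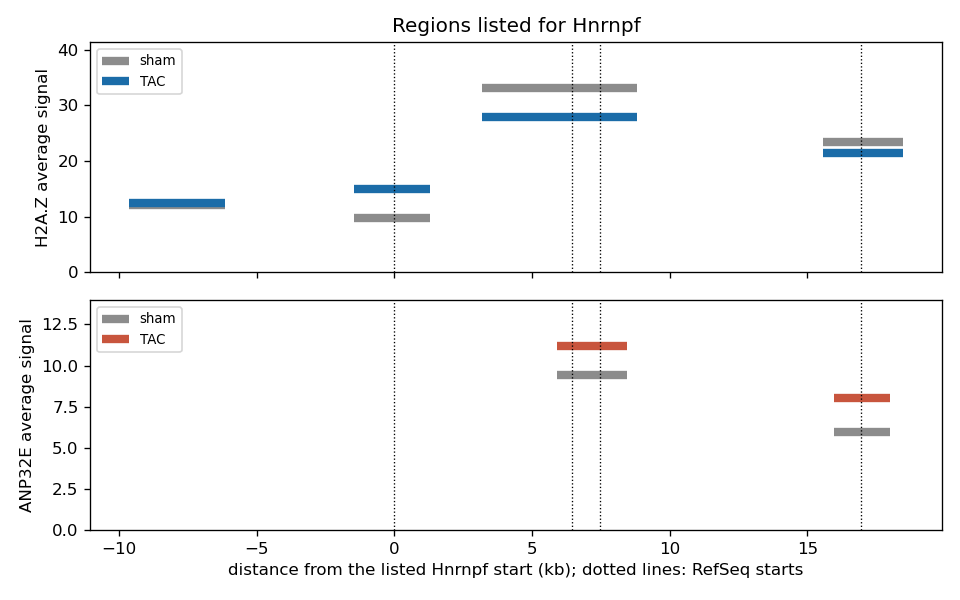
Regions listed for Hnrnpf by distance from the listed start (x axis, kb), drawn at their average signal (y axis, deposited units) in sham (grey) and TAC (coloured), with RefSeq starts as dotted lines. H2A.Z is highest over the first island (33.1 in sham, 28.0 in TAC), and no ANP32E region covers the listed start.

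ANP32E was listed more often at these promoters than at other H2A.Z promoters. Of the 62 members with an H2A.Z promoter, 41 also had an ANP32E promoter, 66.1% (exact 95% binomial interval 53.0 to 77.7%), against 39.5% (38.7 to 40.3%) of the 13676 others. The intervals cover counting only. Among CpG-island promoters the share was 67.8% (54.4 to 79.4%) of 59 members against 42.7% of the others. Among CpG-island promoters in the stronger 50% by H2A.Z it was 76.1% (61.2 to 87.4%) of 46 members against 55.6% (54.3 to 56.8%), and in the weaker 50% it was 38.5% (13.9 to 68.4%) of 13 against 25.8%. By role, an ANP32E promoter was listed for 12 of 16 hnRNP, 9 of 13 PRP, 5 of 7 SF3, 5 of 7 Sm core, 7 of 13 LSm (6 of 12 without Lsmd1) and 2 of 4 U1 and U2 genes. Each of the 41 ANP32E regions overlapped the H2A.Z region of the same gene, and 36 lay wholly inside it. Both regions were picked as the nearest to the same start, and the share over all promoters is not given here. The overlap is therefore not read as a trait of the members. Members with an ANP32E promoter had a median sham H2A.Z average of 36.0, and the 21 without such a promoter 28.0. Some of these 21 still had an ANP32E region within their H2A.Z promoter. By any overlap of at least 1 bp, 44 of the 62 members had ANP32E, 71.0% against 44.4% of the others.

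**Figure D4:**
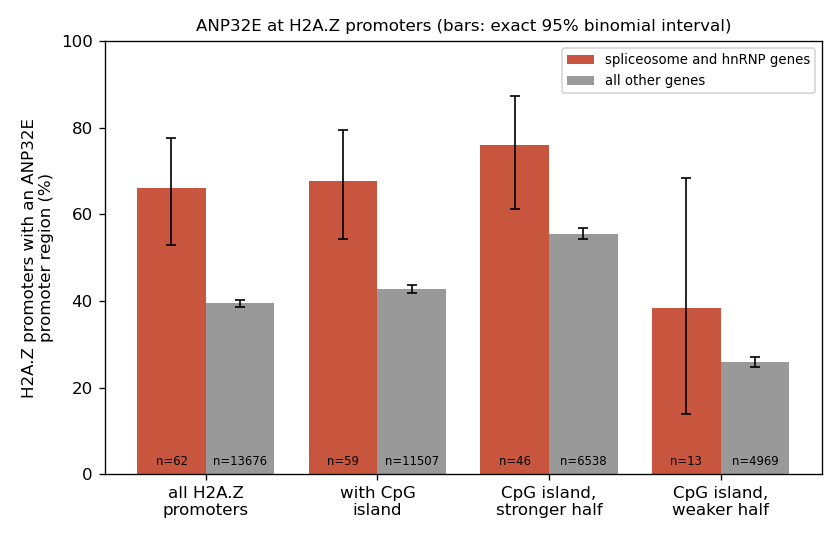
Share of H2A.Z promoters that also have an ANP32E promoter region (y axis, %), for spliceosome and hnRNP genes and for all other genes, over all promoters, those with a CpG island, and CpG-island promoters split at the median H2A.Z level; bars carry exact 95% binomial intervals. The member share is 66.1% against 39.5% overall and 38.5% against 25.8% in the weaker CpG-island promoters, where only 13 members lie and the intervals overlap.

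ANP32E values were far lower than those of H2A.Z, but they come from another antibody and table and are not set against them. The member median was 9.91 in sham and 9.07 in TAC, against 8.94 and 8.34 over all ANP32E promoters, and 30 of 41 members were in the stronger 50%. A CpG island was marked in 40 of the 41 regions. Hnrnph3 had the strongest ANP32E promoter in sham, with 14.1 and then 10.9 in TAC. Hnrpdl had 11.6 and 13.0, Hnrnpul1, a relative of Hnrnpu, had 12.3 and 11.8, and Hnrnph1 had 13.5 and 10.3. The weakest were Lsmem1, at 7.72 and 5.38, and Lsm14b, a protein of cytoplasmic RNA granules, at 6.46 and 7.68. Hnrnph3 and Hnrpdl were thus among the strongest for both proteins.

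**Figure D5:**
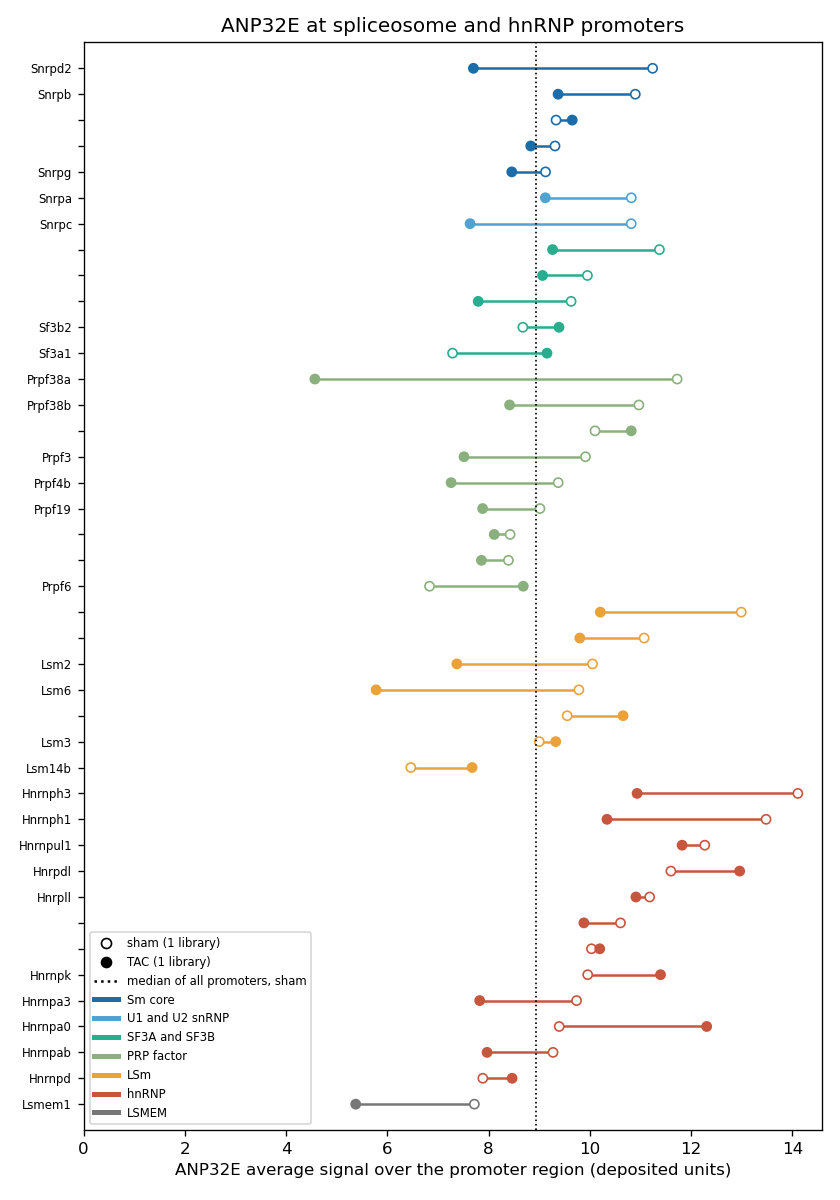
ANP32E average signal (x axis, deposited units) at the 41 member promoters with an ANP32E region, grouped by role, with names for genes chosen from their values by the naming rule, with sham as open and TAC as filled circles from 1 library each and the sham median of all promoters (8.94) as a dotted line. Prpf38a shows the widest gap, from 11.7 in sham to 4.57 in TAC, and Hnrnpa0 the widest in the other direction, from 9.40 to 12.3.

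ANP32E ratios were spread more widely than H2A.Z ratios, and most lay below 0. The order of the members was kept less than for H2A.Z, with a Spearman rho of 0.37 between sham and TAC averages over the 41 promoters. Over all ANP32E regions the median log2 ratio was −0.26, so ratios are also given relative to this shift. The member median was −0.12 (SD 0.29 over 41 promoters) and 0.14 relative to the shift, against −0.14 (SD 0.39) and 0.12 over all promoters. A ratio below 0 was found at 28 of 41 members, 68.3% against 63.5% of all promoters, while 26 of 41 lay above the shift, 63.4% against 64.2%. At least 1.5-fold lower in TAC were 2 members, a share of 4.88% against 9.25% of all promoters. At least 1.5-fold higher was no member, against 4.31%. On the peak signal the median was −0.29 (all promoters −0.16), 30 of 41 members were below 0 (73.2% against 60.9%), 8 were at least 1.5-fold lower (19.5% against 17.2%) and none was higher (6.32%). The peak has its own shift, a median of −0.29 over all regions. Relative to that, 2 members were at least 1.5-fold lower (4.88% against 4.84%) and 3 higher (7.32% against 15.6%).

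Prpf38a, a factor needed to activate the assembled spliceosome, had the lowest ratio. Its ANP32E region (chr4:108578518-108579919, mm10, also counted as the promoter of Orc1) had an average of 11.7 in sham and 4.57 in TAC. The log2 ratio was −1.19, and −0.93 relative to the shift, and the peak was 20 and 8. H2A.Z at the same promoter was 29.6 and 31.1 (0.07). The second was Lsm6, a subunit of the U6 LSm ring (chr8:78820577-78821784), with 9.78 and 5.78, a ratio of −0.67 and of −0.41 relative to the shift, and a peak of 21 and 12. H2A.Z there was 25.4 and 24.6 (−0.04). Both regions were marked as called in sham only, so at these promoters the ANP32E average differed between conditions while the H2A.Z average stayed within 0.07 on the log2 scale.

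Next came Snrpd2 in the Sm core, with 11.2 in sham and 7.70 in TAC (−0.49, and −0.23 relative to the shift). Snrpc had 10.8 and 7.63 (−0.45, and −0.19), and Lsm2 had 10.1 and 7.37 (−0.40, and −0.14). Lsmem1 had −0.45, and −0.19 relative to the shift. The 8 members with a peak at least 1.5-fold lower were Prpf38a, Snrpd2, Lsm6, Snrpg, Hnrpll, Lsm2, Snrpc and Lsm4. Relative to the peak shift those were Prpf38a and Snrpd2 alone, and Prpf4, Hnrnpu and Snrpd3 were at least 1.5-fold higher, names taken after their values were seen. Snrpd2, at 26 and 13, and Snrpg, at 23 and 14, show that Sm core peaks were among them.

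At the other end, Hnrnpa0 had 9.40 in sham and 12.3 in TAC (0.36, and 0.62 relative to the shift). Prpf6, a bridge between the parts of the tri-snRNP, had 6.83 and 8.69 (0.31), and Sf3a1, an SF3A subunit, had 7.29 and 9.15 (0.29). Lsm14b (0.22), Hnrnpk, with 9.96 and 11.4 (0.18), and Hnrpdl (0.15) followed. All 6 were above 0 before the shift was removed. Because the shift lies below 0, removing it could only raise them. Hnrnpa0 passed 1.5-fold only once the shift was removed.

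By role, the hnRNP promoters had the ANP32E median nearest to 0, −0.04 over 12 genes, which is 0.22 relative to the shift. The Sm core had −0.10 (5 genes, 0.17 relative to the shift), SF3A and SF3B −0.12 (5 genes, 0.14), the LSm genes −0.16 (7 genes, 0.10) and the PRP factors −0.17 (9 genes, 0.09). The LSm value rests on Lsmd1: the 6 genes without it had −0.06, and 0.21 relative to the shift. The pair of U1 proteins, Snrpa and Snrpc, had a median below 0 on both scales, −0.34 and −0.07, as did the lone Lsmem1. Snrpa itself had 10.8 in sham and 9.12 in TAC (−0.22, but 0.04 relative to the shift). In the SF3B complex, Sf3b1 had 9.95 and 9.07 (−0.12, but 0.14 relative to the shift). Snrpb likewise had 10.9 and 9.37 (−0.20, but 0.07).

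Average and peak went apart at some ANP32E promoters. They lay on opposite sides of 0 by at least 0.1 each at Hnrnpk, Prpf6, Sf3b2 and Hnrnpa3. Hnrnpk had a higher average but a peak of 37 in sham and 29 in TAC (−0.34). Prpf6 had peaks of 21 and 19, and Sf3b2 had averages of 8.68 and 9.39 with peaks of 25 and 17. At Hnrnpa3 the average was lower, 9.74 and 7.82, and the peak higher, 19 and 21.

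An ANP32E interval was called in both conditions at 28 members, 68.3% against 48.3% of all ANP32E promoters. Called in sham only were 10 members, 24.4% against 33.9%: Lsmem1, Lsm2, Lsm3, Lsm6, Prpf19, Prpf3, Prpf38a, Snrpg, Snrpc and Hnrnpab. Called in TAC only were 3, 7.32% against 17.8%: Sf3a1, Hnrnpd and Hnrpll. The marks did not always follow the averages. Lsm3 was called in sham only at 9.00 in sham and 9.33 in TAC, and Hnrpll, an L-like hnRNP, in TAC only at 11.2 and 10.9. For H2A.Z, no member was called in sham only (background 0.968%), and Lsm10 alone was called in TAC only (2.83%), although its average was lower in TAC.

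The ratios of both proteins went with each other only weakly. Over the 41 shared promoters, both averages were lower in TAC at 20, both higher at 6, H2A.Z alone higher at 8 and ANP32E alone higher at 7. Taken singly, 27 of the 41 were lower in TAC for H2A.Z and 28 for ANP32E. The split over all promoters with both proteins is not given here, so these counts are not read as a trait of the members. Spearman's rho between the ratios was 0.10 over these 41 promoters, and 0.12 over all 5440 promoters with both proteins. The levels went together more, with a rho of 0.30 in sham (0.34 over all) and 0.56 in TAC. The TAC value over all promoters is not given here, so the difference between sham and TAC is not read as particular to the members. Points in these correlations share the same libraries and partly the same CpG-island sequence. The lowest sums of both ratios were those of Prpf38a (−1.12), Lsmem1 (−0.80), Lsm6 (−0.71) and Snrpd2 (−0.63), and the highest those of Hnrnpa0 (0.37), Prpf6 (0.29), Hnrnpk (0.25) and Sf3a1 (0.24).

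Members without a promoter region were Hnrnpa1, Hnrnpul2, Sf3a2 and Snrpn for H2A.Z. Hnrnpa1, a main splicing repressor, had its nearest listed H2A.Z region 16645 bp downstream, at 18.03 in sham and 16.93 in TAC. Snrpn, an Sm protein from an imprinted locus that is best known from neurons, had a single weak region 135323 bp from the start within the gene, at 12.7 and 11.9. For Hnrnpul2 the nearest was 19746 bp downstream (37.3 and 36.7). For ANP32E, the listed genes without a promoter region were Hnrnpf, Hnrnpul2, Lsm10, Lsm11, Lsm12, Lsmem2, Prpf39, Prpf40b, Prpf8, Sf3a3 and Snrpd1. Among these, Prpf8 had its nearest region 23503 bp downstream, at 12.3 and 9.17. The lowest ratio there was at the region nearest to Lsm11, a partner of Lsm10 in the U7 snRNP. It lay at −10536 bp with 10.2 in sham and 4.13 in TAC (−1.13), and was called in sham only. Each region whose values are given in this paragraph was counted as the promoter of another gene, so its values are not specific to the member.

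Listed regions that were not counted as the promoter of any gene in the same table were read separately. For H2A.Z, 17 members had 24 of these, with a median log2 ratio of −0.11 against −0.03 over 11838 such regions. None was 1.5-fold higher (2.25%) or lower (6.18%). For ANP32E, 10 members had 12, with a median of 0.07 against −0.45 over 2823. Of these 12, 3 were at least 1.5-fold higher (background 6.27%), namely one within Hnrnpd (3.75 in sham, 7.50 in TAC), one downstream of Lsmem2 (4.84 and 9.16) and one upstream of Sf3b1 (4.91 and 8.03). One upstream of Sf3b4 was at least 1.5-fold lower (8.02 and 4.22), where 39.1% of all such regions were. The 3 higher regions were called in TAC only and the Sf3b4 region in sham only. Each was thus listed through the condition where it is high, so these counts are not read as a trait of the members. Regions not counted as a promoter can still be close to a start. Of the 12 ANP32E regions, 5 overlapped the H2A.Z promoter region of the same gene, and those of Hnrnpd, Sf3b1, Sf3b4 and Lsm10 lay wholly inside it. The islands of Hnrnpf described above, which hold RefSeq starts, are also among the regions of both proteins.

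A further list of 83 genes outside the naming rule, of the spliceosome and related RNA processing, was read in the same way. It ran from helicases and the exon junction complex to Gemin, Ptbp, Pcbp and Ncbp genes. H2A.Z was present at the promoters of 74 of the 83 genes, with a median ratio of 0.02. Ratios below 0 were found at 32 of the 74, 43.2% against 39.8% of all promoters and 61.3% of the members. None was 1.5-fold higher or lower, against 0.437% and 0.146% of all promoters. The highest were Slu7, a second-step factor, with 14.1 in sham and 18.7 in TAC (0.38), and Ptbp2, with 24.0 and 27.8 (0.21). The lowest were Pcbp2, with 17.7 and 14.6 (−0.26), and Luc7l3, with 31.9 and 26.6 (−0.25). An ANP32E promoter was found for 43 of the 74, 58.1% (46.1 to 69.5%). Over 44 ANP32E promoters of the list the median ratio was −0.23, which is 0.03 relative to the shift, with 1 at least 1.5-fold higher (2.27% against 4.31% of all promoters) and 4 lower (9.09% against 9.25%). Ddx46, a helicase of the U2 snRNP, was the one higher, at 5.02 and 8.33 (0.63), followed by Ppih, a tri-snRNP cyclophilin, at 6.12 and 8.77 (0.46). The lowest were Rnpc3, a protein of the minor spliceosome, at 9.48 and 5.35 (−0.72), and Snrnp27, a tri-snRNP protein, at 8.96 and 5.10 (−0.71). Ddx46 and Ppih were called in TAC only, and Rnpc3 and Snrnp27 in sham only. Each was thus listed through the condition where it is high.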

How the data were processed

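Both proteins were read from a table of enriched regions each, with mm10 coordinates. Per the submitters' processing notes, BWA and SICER were used. Their versions, the scaling between libraries and the use of the input were not given in the sources used here. Per the labels' protocols, a company carried out ChIP, library construction and sequencing. Each region holds an average and a peak signal per library, as deposited by the authors, together with its gene list, distance to the start, CpG islands and called intervals. The values are not counts, so depth is unknown and no interval can be put on a single value.

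Computed here were log2 ratios of TAC over sham on signal plus 1, a 1.5-fold limit, medians and counts beside those over all promoters, exact 95% binomial intervals of shares, and matches of motifs in RefSeq windows (Python 3.11.15, pandas 2.3.3, SciPy 1.17.1). With 1 library per protein and condition there were no tests. The computation of ratios was tested on simulated data. Genes were named by rule: members past 1.5-fold, the 6 highest and 6 lowest ratios, the 4 strongest and 2 weakest promoters, those called in one condition or with opposed average and peak, those without a promoter, the 4 highest and lowest sums over both proteins, 11 fixed genes, and the 2 highest and lowest of the further list. Further genes in the role paragraphs were chosen after their values were seen. The members and lists were chosen with earlier results of these data known. Alternatives changed the measure, the pseudocount (0.1 and 5), the centring, the filter, the distance (5000 bp), the calls, the symbols, the fold (2) and the overlap. The input library had no values in these tables.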

Additional observations from a re-analysis of the deposited data

How the results depend on the processing

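Of 69 alternative settings over the 7 main values, 55 left the value close, 11 moved it and 3 turned the sign of a median. The H2A.Z median log2 ratio was −0.03 with the average and 0.12 with the peak value, or 0.024 when the peak was centred on all regions, a setting added after seeing the data. The ANP32E median was −0.12 with the average, −0.29 with the peak 0.14 when centred on all regions and −0.0021 with the centred peak. With a pseudocount of 0.1, 1 H2A.Z member (Hnrnpf) passed 1.5-fold higher instead of 0. Centring put 1 ANP32E member (Hnrnpa0) past 1.5-fold higher instead of 0, and the centred peak put 3 there. The 2 ANP32E members at least 1.5-fold lower became 8 with the peak value, 1 with a pseudocount of 5, 1 when centred, 1 with a 2-fold limit, 0 in the stronger 50% of promoters and 0 where an interval was called in both conditions. The last 2 settings leave out promoters, and the cause of the other differences was not tested. The share of H2A.Z members with ANP32E stayed between 66.1 and 71.0%. No paired analysis was possible because each protein had 1 library per condition. Leaving out a library was not possible for the same reason. With depth unknown, small ratios at weak regions such as those of ANP32E cannot be told from counting error.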
